A study of Mus musculus with 4 samples.

Results

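The proteasome is the large protease that degrades ubiquitin-tagged proteins. Its genes are described here in myeloid cells sorted from mouse livers, where they were taken as every protein-coding row of the count table whose GENCODE M21 symbol is Psm followed by a letter from a to g and a digit. The rule found 50 genes among 55487 rows. Of these, 49 encode proteasome subunits, regulators or assembly factors, and 1, Psmc3ip, matches only by its name, since it encodes a partner of meiotic recombinases. RNA was compared between mice labelled LysM-Cre IL10R wt/wt (n = 2 libraries) and LysM-Cre IL10R fl/fl (n = 2 libraries). Both genotypes carry LysM-Cre, in which the lysozyme 2 locus drives Cre in macrophages, monocytes and granulocytes, and the receptor gene is floxed only in fl/fl. Cells were gated as CD45+ CD11b+ and negative for CD3 and CD11c. The labels give neither age nor sex, and do not say whether the libraries of a genotype came from separate mice. The p-values thus measure the spread between these samples, which may be technical in wt/wt.

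The core of the proteasome, the 20S particle, is a barrel of alpha and beta rings, and its proteolytic sites sit in beta subunits. In the constitutive form these sites are in Psmb5, Psmb6 and Psmb7. Interferon-gamma induces the replacement subunits Psmb8, Psmb9 and Psmb10, which together make the immunoproteasome, and also the PA28 activator made of Psme1 and Psme2. Immune cells such as macrophages can carry both forms, and the immunoproteasome shapes the peptides presented on MHC class I. The 19S particle caps the core, recognises ubiquitin, and unfolds substrates with its ATPases.

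Total counts were 22694136 and 26441014 in wt/wt 1 and 2, and 17750343 and 17154042 in fl/fl 1 and 2. The 50 genes took 0.476% and 0.450% of the counts in wt/wt against 0.545% and 0.530% in fl/fl. Il10ra, taken as the floxed gene, held 1111 and 993 CPM in wt/wt against 69.3 and 14.8 CPM in fl/fl (CPM is a gene's count scaled to the size of its library, with TMM factors). Xist, the RNA of the inactive X chromosome of female cells, had 4298 counts in fl/fl 2 and none were counted for wt/wt 1, wt/wt 2 or fl/fl 1. The fl/fl libraries thus differed in Xist and are not repeats of the same sample. A part of this difference in the proteasome results was not tested. The gate genes Ptprc and Itgam were present in all libraries (1498 to 1598 CPM summed in wt/wt, 1549 to 1948 CPM in fl/fl). Marker genes are said to rise or fall at an edgeR adjusted p under 0.05. Of all tested genes, 2.69% were higher and 3.16% lower in fl/fl by this test. Granulocyte markers moved with genotype: 7 of 9 tested precursor genes rose in fl/fl, with a summed level of 56.2 to 62.8 CPM in wt/wt and 555 to 1681 CPM in fl/fl. Of 12 mature neutrophil genes, 10 rose (3303 to 4129 CPM against 17959 to 40070 CPM). Of 10 cell cycle genes, 6 rose (224 to 327 CPM against 489 to 1115 CPM). Of 12 monocyte and macrophage genes, 4 fell (6500 to 6676 CPM against 4727 to 5402 CPM). Of the fl/fl libraries, replicate 1 had the higher sum for both granulocyte lists and for the cell cycle list. Itgax, which encodes CD11c, was among 6 tested dendritic cell genes and was the 1 that fell. Although the gate was negative for CD11c, Itgax held 158 and 134 CPM in wt/wt against 24.6 and 47.1 CPM in fl/fl. Siglech had 0 counts in all libraries. Prf1 was the 1 of 3 tested NK cell genes that rose. None of the tested Kupffer cell (2), T cell (1), B cell (2), hepatocyte (5), endothelial (4) or erythroid (4) genes passed, and T cell genes summed to at most 1.51 CPM. In sorted bulk RNA, a change in the share of a cell type and a change in RNA per cell cannot be told apart. The part of these marker differences in the proteasome results was not tested.

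Proteasome genes differed little between the genotypes, and mostly in 1 direction. Of the 50 genes, 49 had enough counts to be tested, 1 rose in fl/fl by the edgeR quasi-likelihood test (adjusted p under 0.05), 0 fell, and 48 did not pass. The background over 13496 tested genes was 5.85% called, 2.69% higher and 3.16% lower, so 1 of 49 (2.04%) is no more than genes in general gave. At an unadjusted p under 0.05 there were 8 genes higher and 0 lower among the 49 (16.3%), against 22.5% of all genes in either direction. DESeq2 called 2 of the 49 higher and 0 lower (4.08%), against 12% of all tested genes in either direction. Limma-voom called 1 higher and 0 lower (2.04%), against 4.93% of all. The log2 fold change of fl/fl over wt/wt was positive for 41 of the 49 (83.7%), against 51.9% of all genes, and its median was 0.25 against 0.02. The groups did not overlap in 31 of the 49 (63.3%), against 54.4% of all tested genes. In 28 of these (57.1% of the 49) both fl/fl libraries lay above both wt/wt libraries, against 28.1% of all tested genes, and in 3 (6.12%) both lay below, against 26.3%. These genes are known to be controlled together and are not independent of each other.

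Summed over all 50 genes, the level was 4855 and 4380 CPM in wt/wt against 5637 and 5188 CPM in fl/fl. The fl/fl libraries were thus both above the wt/wt libraries, with a ratio of means of 1.17. With 2 libraries against 2, the smallest two-sided p an exact permutation test allows is 0.333, which this sum reached. Leaving out fl/fl 1 gave a ratio of 1.09, and leaving out fl/fl 2 gave 1.23. With any single library left out, those of wt/wt included, the ratio lay from 1.09 to 1.23. For 41 of the 49 genes the 95% interval of the fold change lay inside 2-fold in both directions, against 46.6% of all tested genes. Intervals were also narrower here, since the median SE was 0.18 in these genes and 0.26 over all tested genes.

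**Figure D1:**
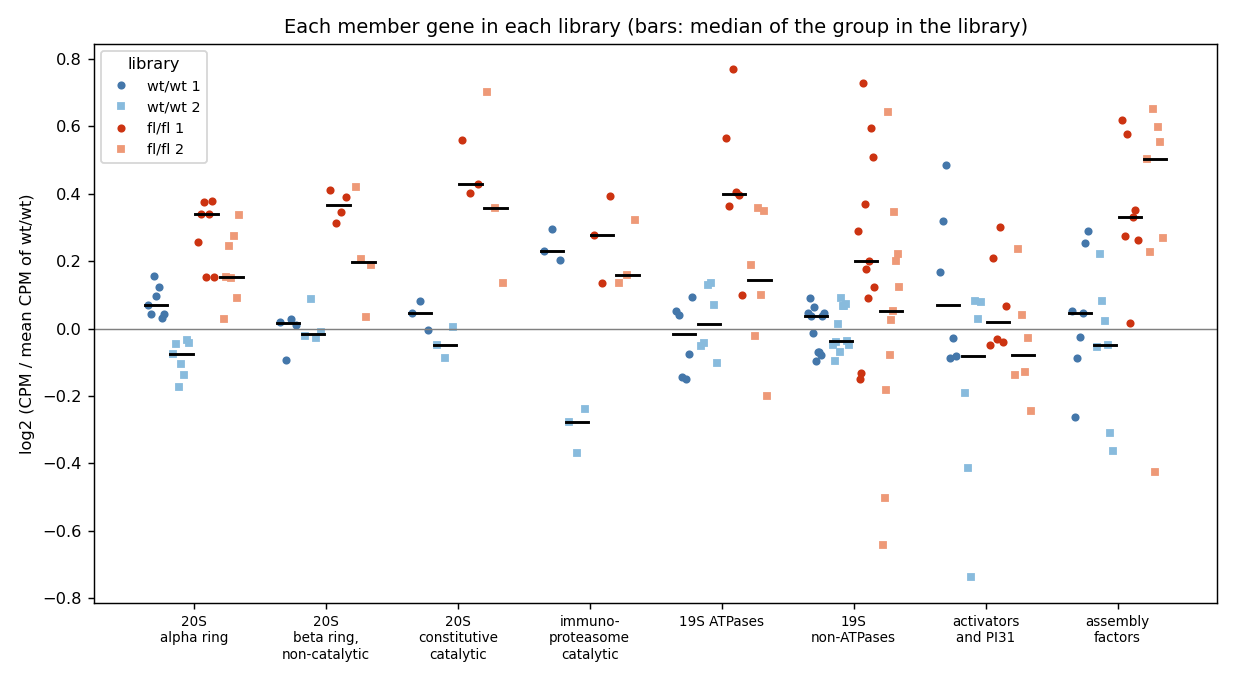
Level of each gene in each library on the log2 scale, relative to the mean of wt/wt, by role; points are genes and bars the median of the role in that library. Medians of the 20S rings are above 0 in both fl/fl libraries, while the immunoproteasome subunits are low in wt/wt 2 alone.

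The alpha ring, which gates entry to the core, is built from Psma1 to Psma7. All 7 had a positive log2 fold change, from 0.15 to 0.31, and 0 of 7 passed (0 at an unadjusted p under 0.05), while DESeq2 and limma-voom called none of them either. Psma3, the one with the largest value, held 139 and 111 CPM in wt/wt against 162 and 148 CPM in fl/fl (0.31 ± 0.18 SE on the log2 scale, edgeR adjusted p = 0.357). The fl/fl values lay above the wt/wt values. In 6 of the 7 genes the groups did not overlap in this direction, against 28.1% of all tested genes. For the alpha ring as a whole, the summed level was 1033 and 929 CPM in wt/wt against 1184 and 1124 CPM in fl/fl.

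The beta ring subunits without a proteolytic site, Psmb1 to Psmb4, had log2 fold changes of 0.20 to 0.42. Psmb1 held 166 and 161 CPM in wt/wt against 217 and 219 CPM in fl/fl. Its libraries agreed closely within each genotype, and the difference of 0.42 ± 0.15 (SE) on the log2 scale had an adjusted p of 0.161 by edgeR. All 4 genes had both fl/fl libraries above both wt/wt libraries, against 28.1% of all tested genes. Of the 4, 0 passed in edgeR, and 1 had an unadjusted p under 0.05, against 22.5% of all tested genes. DESeq2 and limma-voom called none of the 4.

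The constitutive catalytic subunits had a median log2 fold change of 0.38 over 3 genes. Psmb5 carries the chymotrypsin-like site and is the main target of proteasome inhibitor drugs. It lies on GRCm38 chromosome 14, 54614119 to 54618022, minus strand, and held 38.4 and 36.0 CPM in wt/wt against 54.8 and 60.5 CPM in fl/fl. The genotypes were well apart, at a log2 fold change of 0.63 ± 0.16 (SE), or 1.55-fold with a 95% interval of 1.18 to 2.03. Psmb5 did not pass over all genes in edgeR (adjusted p = 0.0773), but passed with DESeq2 (adjusted p = 0.0372) and in edgeR without a filter on low counts (adjusted p = 0.0497), and its adjusted p spanned 0.0372 to 0.423 among the alternatives.

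Psmb6, which carries the caspase-like site, held 103 and 91.9 CPM in wt/wt against 129 and 125 CPM in fl/fl (0.38 ± 0.15 SE on the log2 scale, edgeR adjusted p = 0.206). Psmb7, which carries the trypsin-like site, held 41.5 and 41.7 CPM in wt/wt against 56.0 and 45.7 CPM in fl/fl (0.29 ± 0.18 SE on the log2 scale, edgeR adjusted p = 0.395). Both genes had fl/fl above wt/wt, and the log2 fold change of Psmb7 was 0.10 with fl/fl 1 left out. Nek6 covers 11.8% of the exonic length of Psmb7 on the opposite strand, and the strand setting of the counting is not given in the sources used here. Nek6 itself held 30.5 and 29.7 CPM in wt/wt against 13.9 and 4.34 CPM in fl/fl, the direction opposite to Psmb7. The 3 catalytic genes together summed to 183 and 170 CPM in wt/wt against 240 and 231 CPM in fl/fl, a ratio of 1.34.

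Promoter sequence was examined for 42 of the 50 genes, using RefSeq windows of 300 bases (250 before to 50 after the start, GRCm38.p6). The antioxidant response element core TGACNNNGC, which Nfe2l1 and Nfe2l2 can bind, was found on either strand in 6 of 42 genes (14.3%), against 14.0% of all genes with a RefSeq window and 12.4% of all windows. These 6 include both constitutive catalytic genes with a window, Psmb5 and Psmb6. Matches are shown with up to 10 flanking bases, 5′ to 3′ on the strand of the gene, with the motif in capitals.
Psmd9, chr5:123228149-123228177, plus strand: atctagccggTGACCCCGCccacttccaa
Psmc6, chr14:45329587-45329615, plus strand: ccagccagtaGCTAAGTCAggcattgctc
Psmd12, chr11:107479278-107479299, plus strand: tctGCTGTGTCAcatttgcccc
Psme4, chr11:30771758-30771786, plus strand: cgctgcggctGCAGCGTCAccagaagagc
In Psmb5, Psmb6 and Psmd9 the core reads along the gene. Its first base lies 47, 9 and 31 bases before the RefSeq start, which in Psmd9 lies inside the GENCODE span of the gene. These 3 genes had log2 fold changes of 0.63, 0.38 and 0.61. In Psmc6, Psmd12 and Psme4 the core is on the opposite strand, and the log2 fold changes were −0.04, −0.16 and −0.03. Among genes with a window and no core, Psmd13 was at 0.69, Psmd10 at 0.56 and Psmd11 at −0.31, so values of this size occur without it. Orientation was looked at after the values were known, so this split over 6 genes is a description. A part of the core in these fold changes was not tested.

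The upstream stretches of Psmb5 and Psmb6, which lie outside annotated exons, show where the core sits next to the start of the gene (core in capitals).
Psmb5, chr14:54618023-54618245, minus strand: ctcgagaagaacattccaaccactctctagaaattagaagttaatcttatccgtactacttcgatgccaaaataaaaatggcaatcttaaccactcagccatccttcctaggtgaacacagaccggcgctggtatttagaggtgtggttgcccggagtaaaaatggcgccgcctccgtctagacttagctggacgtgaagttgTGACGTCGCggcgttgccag
Psmb6, chr11:70525107-70525356, plus strand: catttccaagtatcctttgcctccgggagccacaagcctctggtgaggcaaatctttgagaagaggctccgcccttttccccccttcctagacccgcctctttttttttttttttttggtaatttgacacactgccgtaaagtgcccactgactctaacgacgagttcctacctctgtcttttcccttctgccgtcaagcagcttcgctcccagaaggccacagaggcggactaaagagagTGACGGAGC

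The immunoproteasome subunits showed another pattern: the wt/wt libraries differed more from each other than the genotypes did. Psmb8, the replacement for Psmb5, lies on chromosome 17, 34197721 to 34201454, plus strand, in the MHC region. It held 168 and 106 CPM in wt/wt against 151 and 153 CPM in fl/fl. The fl/fl values were nearly equal and lay between the wt/wt values (0.15 ± 0.23 SE on the log2 scale, edgeR adjusted p = 0.778), and the log2 fold change of Psmb8 was −0.14 when wt/wt 2 was left out and 0.47 when wt/wt 1 was.

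Psmb9, the replacement for Psmb6, shares its start region with the peptide transporter gene Tap1 and held 210 and 154 CPM in wt/wt against 239 and 227 CPM in fl/fl. It was the 1 of the 3 with both fl/fl libraries above both wt/wt libraries, against 28.1% of all tested genes (0.36 ± 0.19 SE on the log2 scale, edgeR adjusted p = 0.334). The log2 fold change of Psmb9 was 0.16 when wt/wt 2 was left out and 0.55 when wt/wt 1 was. Psmb10, the replacement for Psmb7, held 254 and 179 CPM in wt/wt against 262 and 238 CPM in fl/fl, and the groups overlapped (0.21 ± 0.21 SE on the log2 scale, edgeR adjusted p = 0.620). None of the 3 passed in edgeR, DESeq2 or limma-voom, and 0 had an unadjusted p under 0.05 in edgeR. The 95% interval of the fold change was 0.756 to 1.62 for Psmb8, 0.933 to 1.76 for Psmb9 and 0.822 to 1.62 for Psmb10, so each interval included 1. Gm20496 covers 14.7% of the exonic length of Psmb8 and had 0 counts.

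All 3 immunoproteasome genes were lowest in wt/wt 2, as were 27 of the 49 tested proteasome genes (55.1%), against 19.6% of all tested genes. On the log2 scale wt/wt 1 exceeded wt/wt 2 by 0.66 in Psmb8, 0.44 in Psmb9 and 0.51 in Psmb10, whereas the fl/fl libraries differed by −0.02 to 0.14. For comparison, the same difference between the wt/wt libraries had a median of 0.14 in the alpha ring, 0.10 in the constitutive catalytic subunits and 0.0028 over all tested genes. These are medians of signed differences. The scaling holds the value over all genes near 0, so it does not give the spread of single genes. Irf1, an interferon-induced transcription factor of these genes, held 914 and 401 CPM in wt/wt against 758 and 820 CPM in fl/fl. It was thus also lowest in wt/wt 2, at a ratio of 2.28 between the wt/wt libraries against 0.924 between the fl/fl libraries. Tap1 (487 and 363 CPM in wt/wt, 441 and 462 CPM in fl/fl) and Tap2 (162 and 110, then 153 and 154 CPM) had the same lowest library. Nlrc5, an activator of MHC class I genes, held 283 and 138 CPM in wt/wt against 134 and 156 CPM in fl/fl, and its lowest library was fl/fl 1. With 4 libraries no correlation was computed, and a part of interferon signalling in this spread was not tested.

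**Figure D2:**
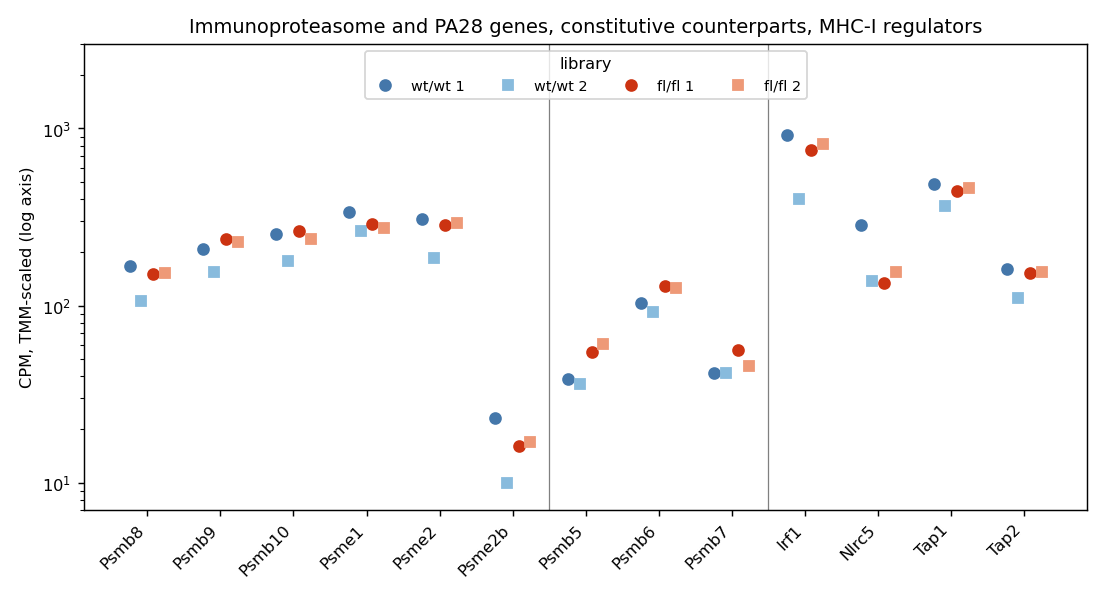
CPM on a log axis in each of the 4 libraries for immunoproteasome and PA28 genes (left), constitutive catalytic subunits (middle) and regulators or partners of MHC class I presentation (right). Psmb8, Psmb9, Psmb10, Psme1, Psme2, Irf1, Tap1 and Tap2 are lowest in wt/wt 2, as are Psmb5 and Psmb6. Psmb5, Psmb6, Psmb7 and Psmb9 have both fl/fl libraries above both wt/wt libraries.

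Motifs of interferon signalling were searched on both strands of the same windows. The interferon-stimulated response element, read as GAAA, any 2 bases and GAAA, was found in 5 of 42 genes (11.9%), against 3.99% of all genes with a window, and the gamma-activated site TTCNNNGAA in 3 of 42 (7.14%), against 9.55%. Of the immunoproteasome genes, Psmb8 holds the gamma-activated site 97 bases before the RefSeq start, and of the PA28 genes Psme1 holds the response element, read on the opposite strand, 9 bases after the start.
Psmb8, chr17:34198088-34198116, plus strand: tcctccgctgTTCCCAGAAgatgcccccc
Psme1, chr14:55578493-55578522, plus strand: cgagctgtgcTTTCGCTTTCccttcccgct
The other response elements were in Psmb3, Psmd4, Psmd9 and Psmg4, none of them interferon-replaced subunits, and the other gamma-activated sites in Psmd2 and Psmg1. The RefSeq windows of Psmb8, Psmb9 and Psme1 lie inside the GENCODE spans of these genes, so the bases before those spans were not searched. The same holds for other genes, among them Psmd9, Psmd13, Psmd5 and Psmf1. A match in any of the windows is a description of letters and not of binding.

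Each immunoproteasome subunit was set against the constitutive subunit it replaces, per kilobase of the principal transcript within each library. The Psmb8 to Psmb5 ratio of levels was 2.42 and 1.63 in wt/wt against 1.52 and 1.40 in fl/fl. Both fl/fl ratios were below both wt/wt ratios, and the log2 difference was −0.45, which became −0.16 with wt/wt 1 left out and −0.73 with wt/wt 2 left out. The Psmb9 to Psmb6 ratio was 1.199 and 0.990 in wt/wt against 1.09 and 1.07 in fl/fl, with overlapping groups and a log2 difference of −0.0093. The Psmb10 to Psmb7 ratio was 5.42 and 3.79 in wt/wt against 4.15 and 4.602 in fl/fl, with overlapping groups and a log2 difference of −0.05. By exact permutation over the 4 libraries, two-sided p was 0.333, 1 and 1 for the 3 pairs, and 1 for each after Benjamini-Hochberg adjustment over the 3, where 0.333 is the smallest the design allows. With the length of all annotated exons in place of the principal transcript, an alternative chosen after seeing the data, the mean log2 ratio of levels in wt/wt moved from 0.99 to −0.06 for Psmb8 to Psmb5, from 0.12 to −0.08 for Psmb9 to Psmb6 and from 2.18 to 3.36 for Psmb10 to Psmb7. Which RNA of a pair is the more abundant in wt/wt therefore depends on the length used for the first 2 pairs. Protein and assembled proteasomes were not measured, so these ratios do not give the abundance of either form. The genotype difference of a ratio does not depend on length.

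The activators that dock on the core in place of the 19S cap were grouped with Psme2b and Psmf1, both described below. Of these 6 genes, called the activators in what follows, 0 passed, and their median log2 fold change was −0.01. Psme1, which with Psme2 forms PA28, held 337 and 263 CPM in wt/wt against 290 and 273 CPM in fl/fl. Psme2 held 309 and 186 CPM in wt/wt against 286 and 292 CPM in fl/fl. Both were highest in wt/wt 1 and lowest in wt/wt 2, as Psmb8 was, and the groups overlapped (log2 fold changes −0.09 ± 0.18 and 0.22 ± 0.25, SE; adjusted p = 0.826 and 0.666, edgeR). Psme2b is a copy of Psme2 with a single exon and no intron, and it was named after its values were seen. It held 23.1 and 9.91 CPM in wt/wt against 16.2 and 17.0 CPM in fl/fl. Its counts were 7.49% and 5.33% of those of Psme2 in wt/wt against 5.66% and 5.83% in fl/fl. Reads of Psme2 and Psme2b may have been split between these related genes, so the value of Psme2b is uncertain.

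Psme3 forms the nuclear PA28 gamma ring and held 71.1 and 79.9 CPM in wt/wt against 93.1 and 69.1 CPM in fl/fl. Psme4 encodes PA200, an activator linked to histone turnover, and held 64.6 and 67.1 CPM in wt/wt against 64.1 and 64.5 CPM in fl/fl. The 4 Psme4 values were the closest of the group, at a log2 fold change of −0.03 ± 0.15 (SE) and a fold interval of 0.759 to 1.26. Psmf1 encodes PI31, a protein first described as a proteasome inhibitor, and held 22.9 and 25.6 CPM in wt/wt against 25.4 and 20.5 CPM in fl/fl. Groups overlapped for Psme3 and Psmf1 (adjusted p = 0.818 and 0.871, edgeR), and the adjusted p of Psme4 was 0.929. DESeq2 and limma-voom called 0 of the 6 as well, and 0 had an unadjusted p under 0.05 in edgeR.

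The 6 ATPases of the 19S base, Psmc1 to Psmc6, form the ring that unfolds substrates and threads them into the core. Their log2 fold changes ran from −0.04 to 0.58, with 5 of 6 positive, and 0 passed in edgeR, DESeq2 or limma-voom. In edgeR 2 of the 6 had an unadjusted p under 0.05, against 22.5% of all tested genes. Psmc3 held 87.1 and 105 CPM in wt/wt against 164 and 123 CPM in fl/fl. Both fl/fl libraries were above wt/wt, and fl/fl 1 was the highest (0.58 ± 0.20 SE on the log2 scale, edgeR adjusted p = 0.147). Without fl/fl 2 the adjusted p of Psmc3 was 0.0450 at a log2 fold change of 0.78, and without fl/fl 1 the log2 fold change was 0.32. Psmc6, the 1 gene of the ring with a negative value, held 83.5 and 72.9 CPM in wt/wt against 83.9 and 68.1 CPM in fl/fl, so that the groups overlapped (log2 fold change −0.04, adjusted p = 0.926). All 6 ATPase genes had their highest level in fl/fl 1. Their median log2 fold change was 0.32, and 0.11 without fl/fl 1.

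The 11 non-ATPase subunits of the 19S particle recognise ubiquitin, hold the particle together or remove ubiquitin chains. Of these, 1 rose and 10 did not pass. Psmd13 encodes a scaffold subunit of the 19S lid and lies on chromosome 7, 140881968 to 140898643, plus strand. It held 105 and 107 CPM in wt/wt against 175 and 165 CPM in fl/fl. Replicates differed by little within each genotype, and fl/fl stood well above wt/wt, at 1.61-fold with a 95% interval of 1.26 to 2.06 (0.69 ± 0.15 SE on the log2 scale, edgeR adjusted p = 0.0478). The call of Psmd13 is at the edge of the threshold: the adjusted p was 0.0534 with RLE size factors, 0.373 leaving out wt/wt 1, 0.206 leaving out wt/wt 2 and 0.108 leaving out fl/fl 1. Without fl/fl 2 it was 0.0408. The adjusted p spanned 0.00472 to 0.373 among the alternatives, and the log2 fold change 0.61 to 0.73. Without either wt/wt library, edgeR called 0 genes in the whole table, with 1576 and 2333 at an unadjusted p under 0.05. Sirt3 covers 10.1% of the exonic length of Psmd13 on the opposite strand and held 9.39 and 12.3 CPM in wt/wt against 9.90 and 11.9 CPM in fl/fl, with overlapping groups.

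At the other end, Psmd11, which also belongs to the lid, held 56.9 and 50.03 CPM in wt/wt against 48.2 and 37.7 CPM in fl/fl. It was among 3 of the 49 genes with both fl/fl libraries below wt/wt (−0.31 ± 0.19 SE on the log2 scale, edgeR adjusted p = 0.392). These 3 are 6.12% of the 49, a smaller share than the 26.3% of all tested genes. Psmd12, also of the lid and named after its values were seen, was the second, at 44.6 and 42.2 CPM in wt/wt against 39.6 and 38.2 CPM in fl/fl, and Psme4 the third, by under 1 CPM. Psmd1, the large base subunit, was named after its values were seen because the ratio between its fl/fl libraries was the largest of the 49 genes, at 50.8 and 26.7 CPM, against 43.0 and 40.2 CPM in wt/wt. The 11 genes had log2 fold changes from −0.31 to 0.69 with a median of 0.12, so lid genes that encode parts of 1 complex differed in sign. That median was 0.01 without fl/fl 1.

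Sem1, a small lid subunit outside the symbol rule, rose beside Psmd13. It held 229 and 184 CPM in wt/wt against 369 and 372 CPM in fl/fl. Every fl/fl value was far above every wt/wt value, at a log2 fold change of 0.84 ± 0.17 (SE; adjusted p = 0.0410, edgeR). Leaving out wt/wt 1, wt/wt 2 or fl/fl 1 took the adjusted p of Sem1 to 0.209, 0.209 and 0.0519, at log2 fold changes of 0.96, 0.70 and 0.81. Leaving out fl/fl 2 gave 0.0334.

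**Figure D3:**
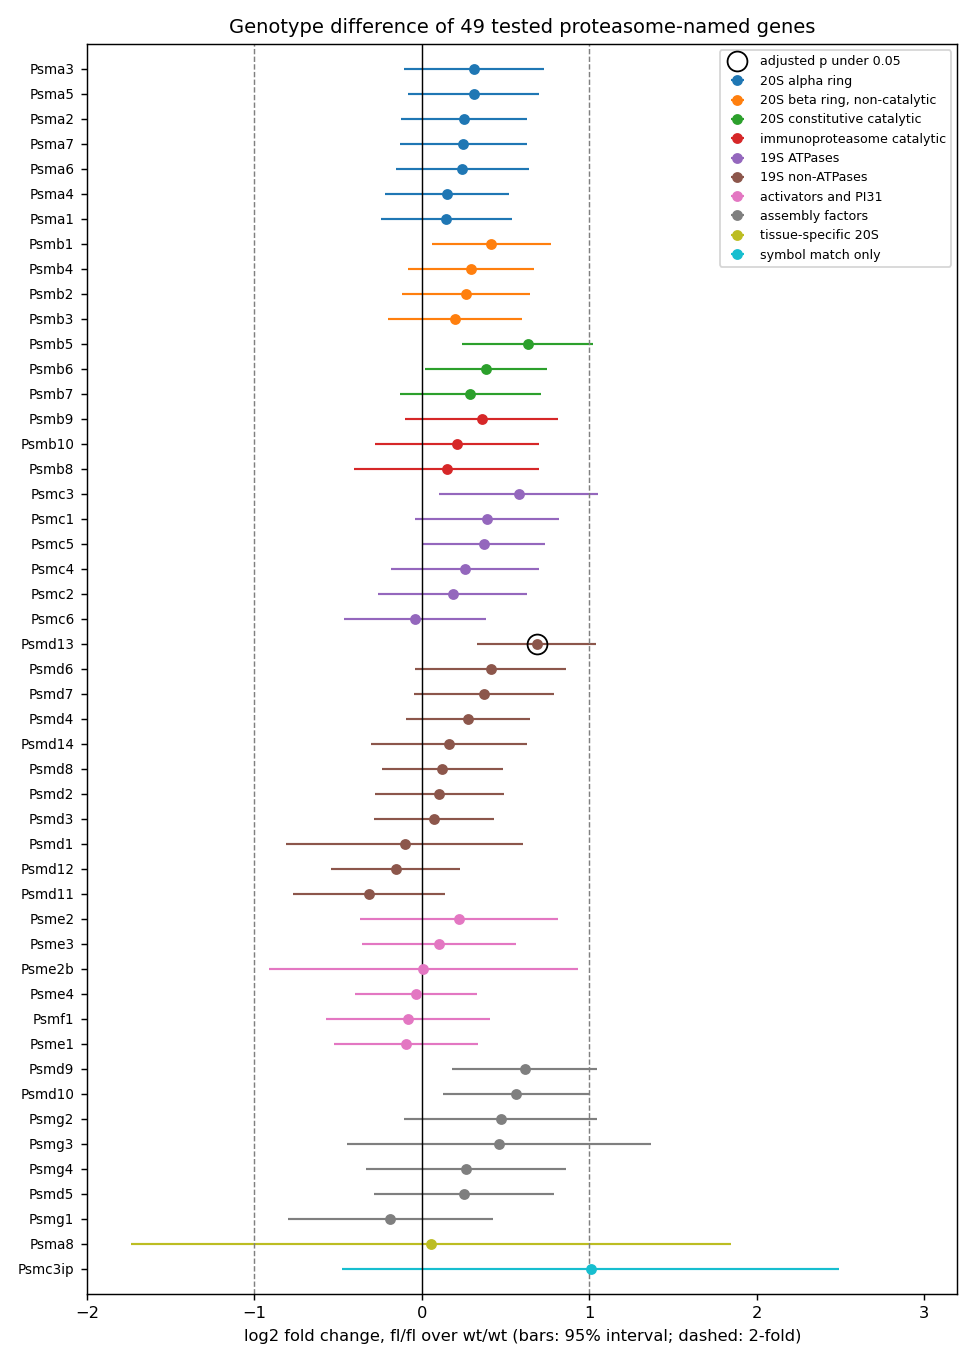
Log2 fold change of fl/fl over wt/wt with its 95% interval from the edgeR fit for the 49 tested genes, coloured by role; dashed lines mark 2-fold. Psmd13, circled, is the 1 gene past the threshold, and 41 of the 49 values lie to the right of 0.

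Assembly factors are chaperones that build the proteasome and leave before it works. Psmg1 to Psmg4 start the alpha ring, and Psmd5, Psmd9 and Psmd10 (gankyrin) hold ATPases until the base closes. Their median log2 fold change was 0.46, with 6 of 7 positive and 0 past the threshold in edgeR, DESeq2 or limma-voom. An unadjusted p under 0.05 in edgeR was reached by 2 of the 7, against 22.5% of all tested genes. Psmd9 held 20.7 and 23.2 CPM in wt/wt against 32.8 and 34.5 CPM in fl/fl. The genotypes were apart (0.61 ± 0.18 SE on the log2 scale, edgeR adjusted p = 0.105), although Gm26745, not analysed here, covers 25.5% of the exonic length of Psmd9 on the opposite strand. Psmd10, on the X chromosome, held 21.5 and 20.004 CPM in wt/wt against 31.9 and 29.4 CPM in fl/fl (0.56 ± 0.18 SE on the log2 scale, edgeR adjusted p = 0.132). The fl/fl values were close to each other, although Xist was counted only in fl/fl 2. Psmd5 held 17.5 and 24.4 CPM in wt/wt against 25.3 and 24.5 CPM in fl/fl, so that wt/wt 1 alone was low.

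The chaperones of the alpha ring differed among themselves in sign. Psmg1 held 13.3 and 13.7 CPM in wt/wt against 13.6 and 10.0 CPM in fl/fl, with overlapping groups and a log2 fold change of −0.19 (adjusted p = 0.741). Psmg2, its partner in a heterodimer, held 10.9 and 10.2 CPM in wt/wt against 13.3 and 15.98 CPM in fl/fl, with a log2 fold change of 0.47 (adjusted p = 0.313). The partners of that dimer thus had values of opposite sign, neither past the threshold. Psmg3 was the lowest of the group at 4.36 and 2.95 CPM in wt/wt against 4.66 and 5.36 CPM in fl/fl, from 80 to 97 counts a library. Its partner Psmg4 held 29.1 and 18.5 CPM in wt/wt against 28.5 and 28.6 CPM in fl/fl, with wt/wt 2 alone low. Pomp, the chaperone that closes the core and is not covered by the symbol rule, held 226 and 187 CPM in wt/wt against 256 and 270 CPM in fl/fl (0.35 ± 0.17 SE on the log2 scale, edgeR adjusted p = 0.284).

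The 3 remaining genes were at or near the limit of detection. Psmb11, the thymus-specific catalytic subunit, had 0 counts in all 4 libraries, which allows at most 0.111 to 0.175 CPM a library (the level of 3 counts, which covers counting error only because reads copied by PCR are not independent). Psma8, the testis-specific alpha subunit, had 13 and 26 counts in wt/wt against 10 and 18 in fl/fl, or 0.584, 0.958, 0.582 and 1.03 CPM. Psmc3ip had 31 and 20 counts in wt/wt against 46 and 28 in fl/fl. Its log2 fold change of 1.01 ± 0.62 (SE; adjusted p = 0.402, edgeR) is the largest by value and the least precise but for Psma8, and Mlx covers 21.2% of its exonic length on the opposite strand.

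Per kilobase of principal transcript, the most abundant gene in wt/wt was Psme1 with a mean of 270 CPM per kb, followed by Psma7 and Psme2, both with 257 CPM per kb. These 3 neighbours do not differ beyond the spread of Psme2 between the wt/wt libraries. Psmb4 (175 CPM per kb) and Psmb10 (165 CPM per kb) came next, whereas Psmb5 and Psmb7 were at 41.4 and 35.8 CPM per kb. Assembly factors ranged from 4.14 CPM per kb for Psmg3 to 42.9 CPM per kb for Psmg4. In fl/fl the same 3 genes led, in the order Psma7 (305), Psme2 (300) and Psme1 (253 CPM per kb). This order depends on the length used: per kb of all annotated exons, an alternative chosen after seeing the data, Psma7 was at 76.6 CPM per kb in wt/wt and 90.9 CPM per kb in fl/fl. By that length Psme2 (140 CPM per kb in wt/wt, 164 CPM per kb in fl/fl) and Psmb10 (127 CPM per kb, then 147 CPM per kb) stood above Psma7 in both genotypes.

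**Figure D4:**
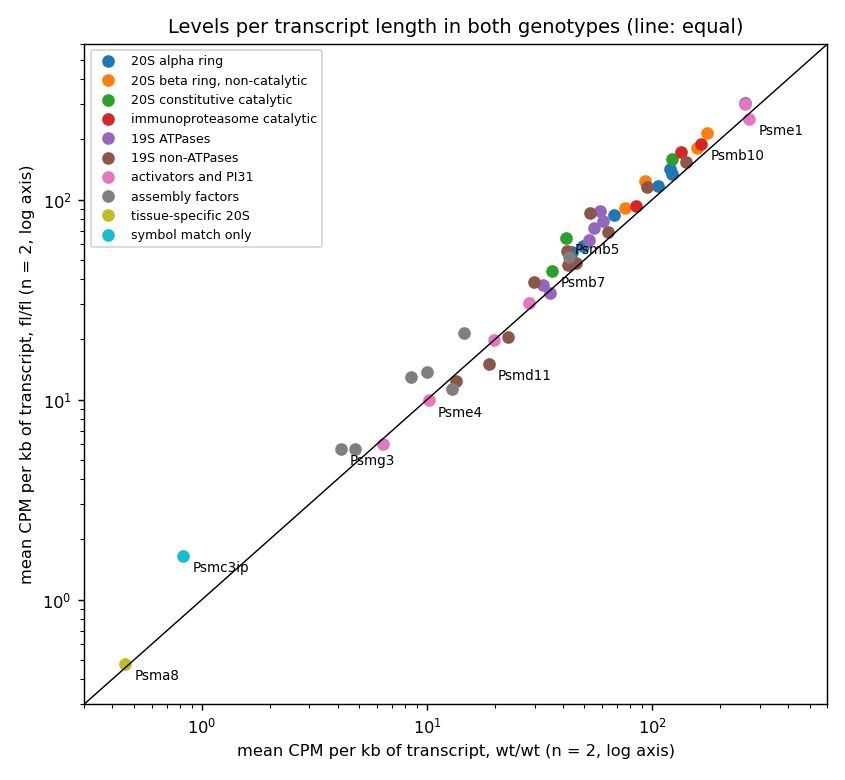
Mean CPM per kilobase of the principal transcript in wt/wt (x axis) and fl/fl (y axis), n = 2 libraries each, both on log axes; the line marks equal levels. Genes span from Psma8 near 0.456 to Psme1 at 270 CPM per kb in wt/wt, and most points lie slightly above the line.

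Among the other genes of the pathway, Sem1 was the 1 that passed in edgeR. Of 16 tested partners outside the symbol rule, which include ubiquitin receptors and deubiquitinases, Sem1 rose and 15 did not pass (median log2 fold change −0.04). At an unadjusted p under 0.05 in edgeR there were 2 of the 16, both higher, against 22.5% of all tested genes in either direction. Of 9 genes that control proteasome transcription, 0 passed (median 0.02, range −1.42 to 0.57), with 1 at an unadjusted p under 0.05. That gene is Maff, a small Maf protein that pairs with the Nfe2 factors, named after its values were seen. It held 345 and 172 CPM in wt/wt against 101 and 91.7 CPM in fl/fl (−1.42 ± 0.32 SE on the log2 scale, edgeR adjusted p = 0.0515), and DESeq2 called it lower. Nfe2l1, the factor that raises proteasome genes when the protease is impaired, held 55.9 and 64.0 CPM in wt/wt against 55.0 and 66.7 CPM in fl/fl. The groups overlapped (adjusted p = 0.965, edgeR). Of 6 ubiquitin and E1 enzyme genes, 0 passed (median −0.04, range −0.99 to 0.48), with 1 at an unadjusted p under 0.05. That gene is the E1 enzyme Uba6, also named after its values were seen, at 16.6 and 15.5 CPM in wt/wt against 7.45 and 8.67 CPM in fl/fl (edgeR adjusted p = 0.0671), and DESeq2 called it lower. Of 17 genes of MHC class I processing and loading, 0 passed (median 0.02, range −0.54 to 0.47), and 0 had an unadjusted p under 0.05. Tap1 and Tap2 had adjusted p = 0.847 and 0.686, and Nlrc5 0.387. Of 9 tested genes of the interferon-gamma pathway, 0 passed (median −0.07, range −0.71 to 0.35). An unadjusted p under 0.05 was found for 3 of the 9, all lower in fl/fl, against 22.5% of all tested genes in either direction. DESeq2 called 1 of these lower, Irf8, a transcription factor of the monocyte lineage named after its values were seen, at 558 and 404 CPM in wt/wt against 272 and 317 CPM in fl/fl (edgeR adjusted p = 0.102). Irf1 had an adjusted p of 0.736 by edgeR. Limma-voom called Sem1 and 0 others in these lists.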

How the data were processed

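Per the labels, poly(A) RNA came from cells sorted from perfused, digested livers after a Percoll step. The authors deposited raw counts per Ensembl gene in 1 table. The submitters' processing notes list the tools FastQC 0.11.5, Trimmomatic 0.33 and STAR 2.5.0 and the build GRCm38. The sources used here give no counting tool, strand setting or annotation. Symbols for 55227 of 55487 genes, positions and lengths were taken from GENCODE M21.

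The counts were tested in R 4.3.3 with edgeR 4.0.16. Genes passed filterByExpr at a minimum count of 10 (13496 genes), libraries were scaled by TMM, and a two-sided quasi-likelihood F test without covariates was adjusted by Benjamini-Hochberg over all tested genes, at a threshold of 0.05. Log2 fold changes have a prior count of 0.125. Dividing their size by the root of F gave the SE, from which 95% intervals were made. Levels per kb are CPM over the length of the longest APPRIS principal transcript. The alternatives changed the scaling, the filter or the prior count (5), used DESeq2 1.42.0 or limma-voom (limma 3.58.1), added the replicate number as a block, or left out a library.

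Genes and lists were chosen with earlier results of these data known. Values in every library are given for each gene past the threshold, Psmb5 to Psmb10, Psme1 to Psme4, Psmf1, the assembly factors, the largest positive and negative log2 fold change of each other role, Sem1, Pomp and the regulators named. The count of intervals inside 2-fold was added after the values were seen. A planned comparison of protein sequences was not run. Of the regulators that the rule names, 1 is not reported here.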

Additional observations from a re-analysis of the deposited data

How the results depend on the processing

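The number of proteasome genes higher in fl/fl was 0 with RLE size factors, 2 without a filter, 2 with DESeq2, 0 with the replicate number as a block, and 0 to 2 with single libraries left out, while 0 were lower in every fit run. Over all tested genes the share called was 5.72% with RLE size factors, 9.2% without a filter (1017 higher and 1071 lower) and 12% with DESeq2 (784 and 834), against 5.85%. Without fl/fl 2, where 2 of the 49 were called, it was 10%. Same-numbered libraries did not deviate together (r = 0.0215 over 13496 genes, which are not independent replicates), so the numbers were not taken as pairs; over all genes the block moved the calls from 363 higher and 427 lower to 602 and 613.

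With single libraries left out, the median log2 fold change ran from 0.12 to 0.35 in the alpha ring, 0.16 to 0.37 in the non-catalytic beta subunits, 0.30 to 0.44 in the constitutive catalytic subunits, −0.020 to 0.47 in the immunoproteasome, 0.11 to 0.41 in the ATPases, 0.014 to 0.21 in the non-ATPases, −0.12 to 0.028 in the activators, 0.34 to 0.49 in the assembly factors and 0.15 to 0.34 over all members. With the CPM filter, which drops scarce genes, the assembly factor median was 0.35. The assembly factors had the largest median of the roles except with the CPM filter, where it was below that of the constitutive catalytic subunits (0.36), and without fl/fl 2, where it was below those of the constitutive catalytic subunits, ATPases and both ring groups. The ratio of summed levels ran from 1.12 to 1.21 in the alpha ring, 1.007 to 1.40 in the immunoproteasome, 0.914 to 1.16 in the activators, 1.15 to 1.31 in the non-catalytic beta subunits, 1.28 to 1.37 in the constitutive catalytic subunits, 1.09 to 1.39 in the ATPases, 1.06 to 1.204 in the non-ATPases, 1.26 to 1.31 in the assembly factors and 1.09 to 1.23 over all members.

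The log2 difference of the ratio ran from −0.73 to −0.16 for Psmb8 to Psmb5, −0.15 to 0.13 for Psmb9 to Psmb6 and −0.31 to 0.20 for Psmb10 to Psmb7. Small log2 fold changes changed sign when a library was left out. Their ranges were −0.14 to 0.47 for Psmb8, −0.020 to 0.44 for Psmb10, −0.26 to 0.049 for Psme1, −0.094 to 0.59 for Psme2, −0.17 to 0.31 for Psme3, −0.28 to 0.072 for Psmf1, −0.018 to 0.52 for Psmd5, −0.46 to 0.022 for Psmg1, −0.023 to 0.58 for Psmg4, −0.24 to 0.11 for Psmc6, −0.40 to 0.46 for Psma8, −0.12 to 0.13 for Nfe2l1, −0.11 to 0.27 for Tap1, −0.069 to 0.44 for Tap2, −0.97 to 0.027 for Nlrc5 and −0.21 to 0.93 for Irf1. Nfe2l1 was at −0.0033 with upper quartile scaling. Leaving out a library leaves its genotype with 1, whose spread is taken from the other genotype. The cause of these changes was not tested.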

Other observations

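The libraries were unequal in their share of extremes among the proteasome genes. Of the 49 tested genes, 31 (63.3%) had their highest level in fl/fl 1, against 28.2% of all tested genes, and 8 had it in fl/fl 2. The lowest level was in wt/wt 2 for 27 of the 49 (55.1%), against 19.6% of all tested genes. All 7 alpha ring genes were lowest in wt/wt 2. Among the non-ATPase subunits of the 19S particle, 5 of 11 were lowest in wt/wt 1 (29.6% of all tested genes), 4 in fl/fl 2 (23.7% of all) and 2 in wt/wt 2, where 2 of the 6 ATPases were lowest as well. Between the fl/fl libraries, replicate 1 exceeded replicate 2 by a median of 0.34 on the log2 scale in the ATPases, and the assembly factors differed by a median of −0.0058.

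Processed pseudogene rows that carry a proteasome name, 4 in all and for Psmb5, Psmb6 and Psmb7, had 0 counts in every library.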
